A study of Mus musculus with 62 samples.

Results

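Neuronal RNA of WT mouse striatum after a neuronal virus carrying a zinc-finger repressor of mutant Huntingtin (N-ZFP) was set against the same kind of RNA after the control virus N-Delta. The 8 libraries were chosen by their titles, 4 for N-ZFP and 4 for N-Delta, out of 62 in the study. The mice were WT in both groups, received the virus into the striatum at 6 months of age and gave RNA at 12 months. Both groups thus received a virus, and neither carried a mutant Huntingtin allele. Other libraries used here for comparison are neuronal RNA of zQ175 mice (4 N-ZFP, 4 N-Delta), a Huntingtin knock-in line, and bulk striatum of WT mice (3 N-ZFP, 4 N-Delta), all treated at the same ages. Bulk striatum of NCAR mice (4 N-ZFP, 4 N-Delta) is also used; these were given PHP.eB viruses at 4 weeks, and their striatum was taken at 11 weeks. What NCAR abbreviates is not stated, and for that experiment the treatment text calls the N viruses astrocytic while the cell type label gives neuron. The promoter of the neuronal virus, the share of neurons it reached and the way neuronal RNA was captured are not given in the sources used here, beyond column names that call these libraries IP and the bulk ones input. Nothing in the labels says that libraries of a group came from separate animals, so p-values measure the spread between these libraries.

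Mutant Huntingtin differs from the normal protein in a lengthened glutamine tract, encoded by an expanded run of CAG codons in the first exon of HTT. Zinc-finger repressors published for this gene join DNA-binding fingers that read the CAG run to a domain that silences transcription, and prefer long runs to short ones. The labels do not give the sequence that N-ZFP binds. CAG runs also occur in other genes, and CTG is the same triplet read on the opposite strand. In WT mice the comparison asks which genes the repressor changes where its intended target is missing.

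The run in mouse Htt itself and those near the transcript start of 6 of the genes described below are shown first, because a repeat of this kind is the feature that several of the lowered genes had in common. Each line gives a stretch of the GENCODE transcript, 5′ to 3′, with runs of at least 3 CAG or CTG units in capitals.
Htt: caaCAGCAGCAGCAGcca
Tceal6: gtcCTGCTGCTGCTGCTGCTGcgg
Kcna6: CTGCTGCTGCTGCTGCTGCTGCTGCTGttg
Acsl1: gccCTGCTGCTGCTGCTGcaa
Impdh1: cgtCAGCAGCAGCAGcgg
Nap1l3: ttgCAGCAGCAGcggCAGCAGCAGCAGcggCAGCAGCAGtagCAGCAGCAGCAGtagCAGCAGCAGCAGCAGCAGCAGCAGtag
Dach1: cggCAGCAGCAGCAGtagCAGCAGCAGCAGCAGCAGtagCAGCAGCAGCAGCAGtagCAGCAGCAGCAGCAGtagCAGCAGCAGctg

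In mm10 the Htt run lies at chr5:34761967-34761978 on the plus strand, in coding sequence. The mouse gene carries 4 units there. The Tceal6 run of 6 CTG units is at chrX:135210632-135210649, the Kcna6 run of 9 at chr6:126740589-126740615 and the Impdh1 run of 4 CAG units at chr6:29212245-29212256, all in 5′ UTRs on the minus strand. The Acsl1 run of 5 CTG units is in the 5′ UTR at chr8:46471088-46471102 on the plus strand. Nap1l3 and Dach1 hold interrupted arrays in coding sequence on the minus strand, at chrX:122396811-122396888 with 22 units and at chr14:98168843-98168923 with 23 units. Their longest uninterrupted runs are 8 and 6 units.

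The libraries were read to a similar depth, 9326037 to 12200813 counts in the 4 N-ZFP libraries and 10329688 to 11684286 in the 4 N-Delta libraries. A count of 3 corresponds to between 0.246 and 0.322 CPM (counts scaled to a common library size) over these 8 libraries. In N-Delta mice, all 5 pan-neuronal genes were higher in neuronal than in bulk RNA (median log2 difference 0.54), as were 38 of 45 striatal projection neuron genes. Markers of astrocytes (37 of 40), microglia (30 of 30) and oligodendrocytes (30 of 30) were lower, with medians of -1.56, -5.18 and -1.78. For that comparison 26.3% of all 17702 genes tested were called higher and 29.6% lower. N-ZFP libraries 1 and 3 stand apart: mitochondrially encoded genes took 0.801% and 1.05% of their counts, against 0.216% and 0.229% in N-ZFP libraries 2 and 4 and 0.167% to 0.217% in N-Delta libraries. The group means were 0.574 ± 0.419% with N-ZFP and 0.198 ± 0.0213% with N-Delta (SD, n = 4 each). An exact two-sided permutation test gave p = 0.0571 (adjusted over 3 library measures 0.171), where 0.0286 is the smallest p possible. With so few libraries this test can hardly pass after adjustment, so it does not show that the shares were equal. The counts of called genes, the tally of runs and the gene lists that moved are also given without N-ZFP libraries 1 and 3.

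Htt was close to its control level in these neurons. It lies on chromosome 5 (mm10, 34761740 to 34912534, plus strand) and had 409, 415, 423 and 392 CPM in N-ZFP libraries 1 to 4, against 424, 422, 436 and 400.2 CPM in N-Delta libraries 1 to 4. The groups overlapped. The log2 fold change of N-ZFP over N-Delta was -0.04 ± 0.10 (SE), with an adjusted p of 0.974 by edgeR's quasi-likelihood test. Of the 9 mouse counterparts of human polyglutamine disease genes, none was called, and their median log2 fold change was -0.00, beside 0.01 over all 15815 genes tested. The smallest p among them belonged to Atxn3, a deubiquitinase gene, at 0.18 ± 0.08 with an adjusted p of 0.784. By unadjusted p under 0.05, 1 of the 9 was higher and none lower, and DESeq2 also called none.

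Few genes changed. At an adjusted p under 0.05, 20 of 15815 genes were called (0.126%), 15 of them lower (0.0948%) and 5 higher (0.0316%) with N-ZFP. All 20 are protein-coding, and in none did the 4 N-ZFP libraries overlap the 4 N-Delta libraries. Such a separation was found in 7.73% of all genes tested, 4.45% lower and 3.28% higher, so most separated genes did not pass the test. Unadjusted p-values under 0.05 were found for 605 genes lower (3.83%) and 353 higher (2.23%), 958 in all (6.06%). DESeq2 called 83 genes, 74 lower and 9 higher, with all of the 20 among them. The count rested on single libraries: it was 9 without N-ZFP library 4, 10 without N-ZFP library 3, 40 without N-ZFP library 2, and 13, 12, 12 and 11 without N-Delta libraries 1 to 4. Tceal6, Mzt2, Nap1l3, Impdh1, Lysmd2, Opcml and Acsl1 passed under all 17 alternatives tried, and the other 13 genes missed the threshold in at least 1. None of the 20 changed sign, but the alternatives reuse libraries whose groups do not overlap, so a change of sign was hardly possible.

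**Figure D1:**
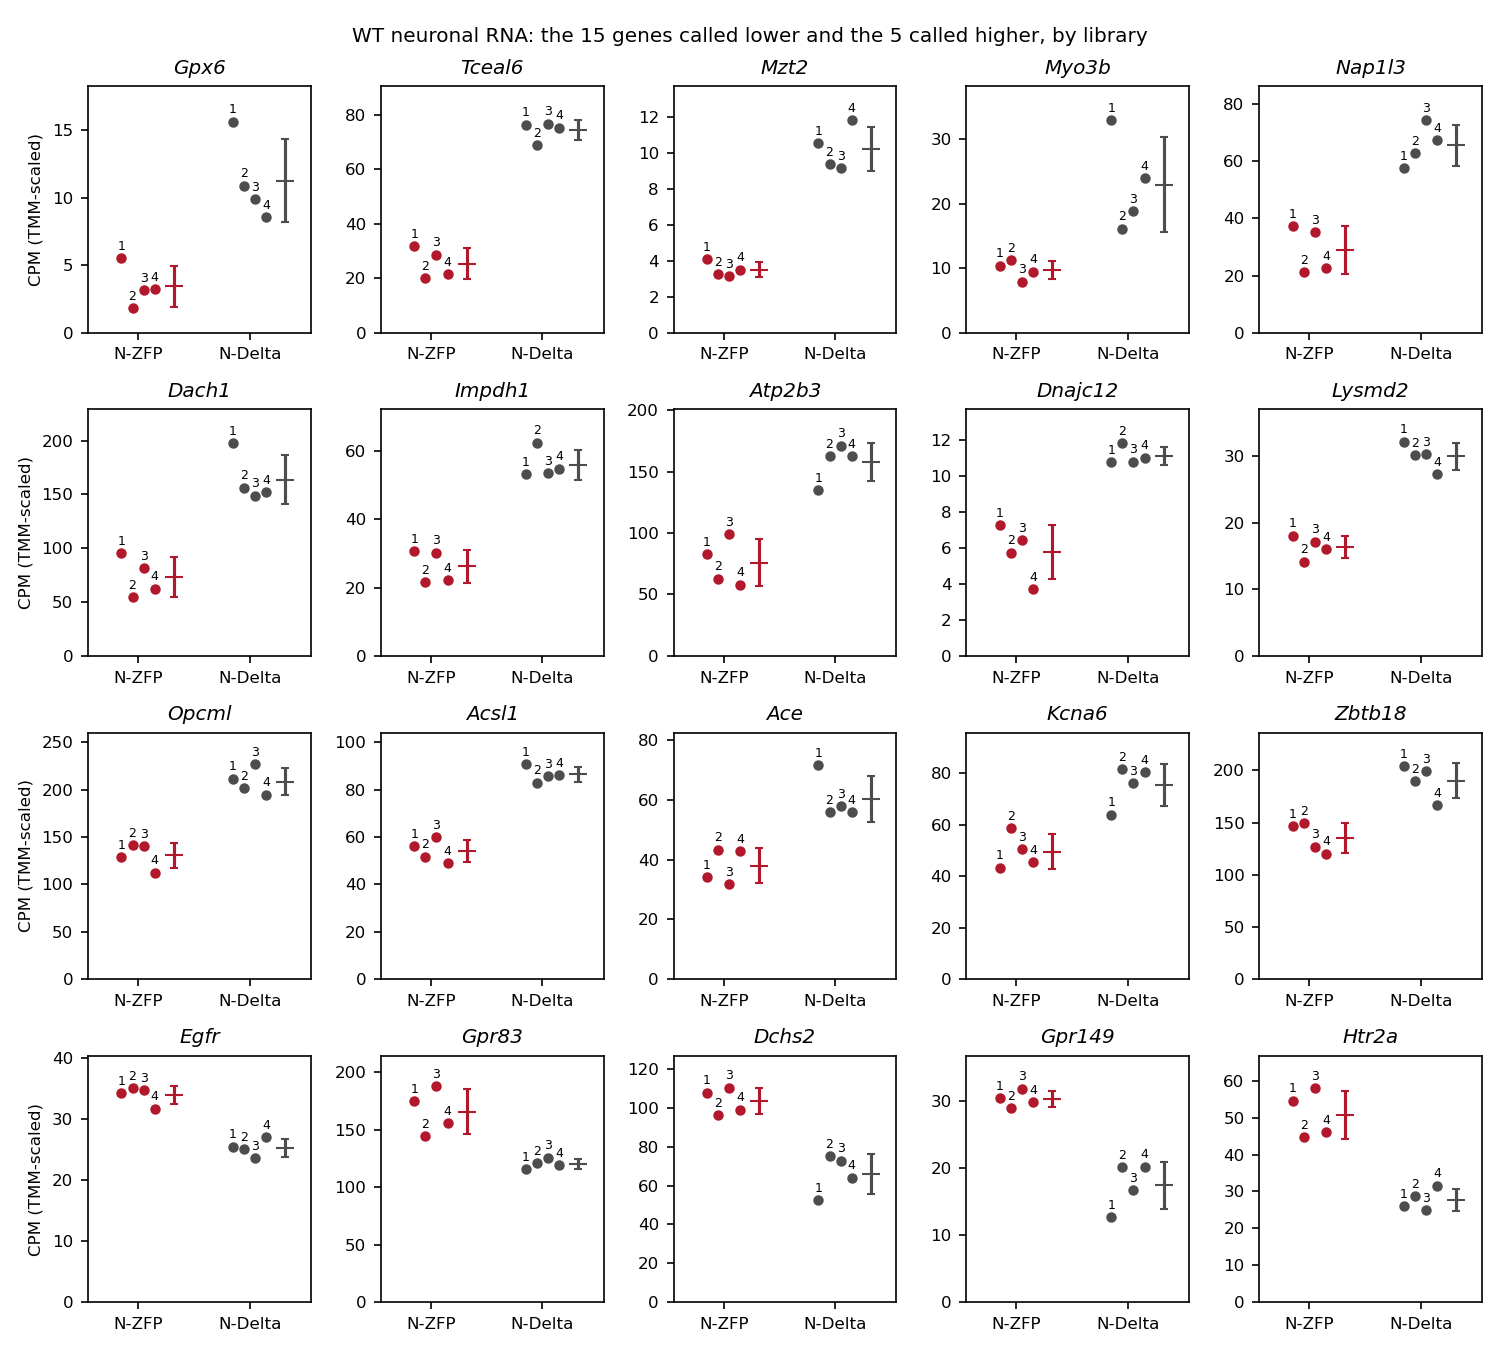
CPM in each WT neuronal library for the 15 genes called lower (first 3 rows) and the 5 called higher (last row), with N-ZFP left of N-Delta. Points are libraries marked by number, and bars give the mean and SD of 4. No N-ZFP point reaches the range of the N-Delta points in any of the 20 panels.

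Tceal6 changed with the smallest p. It belongs to a family of proteins related to a transcription elongation factor. It had 31.7, 19.9, 28.6 and 21.4 CPM with N-ZFP, against 76.3, 68.9, 76.6 and 75.2 CPM with N-Delta. Every N-ZFP library was thus far below every N-Delta library, and libraries 2 and 4 were the lowest. The mean level was 34.2% of that with N-Delta, a log2 fold change of -1.55 ± 0.13 with an adjusted p of 2.77e-05. Tceal3 and Tceal5 are close copies, and 45.3% of the 50-base words of Tceal6 transcripts occur in one of them, so reads could have been split among these genes in counting.

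Nap1l3, Dach1, Mzt2 and Zbtb18 also fell, by differing amounts. Nap1l3, of the nucleosome assembly protein family, had 37.3, 21.1, 35.1 and 22.7 CPM with N-ZFP and 57.6, 62.7, 74.4 and 67.4 CPM with N-Delta (log2 fold change -1.17 ± 0.16, adjusted p = 0.00294, edgeR). Dach1, a transcriptional corepressor of the dachshund family, had 95.1, 54.5, 81.5 and 62.5 CPM with N-ZFP and 197.4, 156.2, 148.9 and 151.9 CPM with N-Delta (-1.16 ± 0.17, adjusted p = 0.00592, edgeR). In both genes libraries 2 and 4 of N-ZFP were below libraries 1 and 3. Mzt2, a component associated with the gamma-tubulin ring complex that nucleates microtubules, was a low-count gene at 4.10, 3.24, 3.15 and 3.51 CPM with N-ZFP and 10.6, 9.39, 9.17 and 11.8 CPM with N-Delta. Its 4 N-ZFP libraries lay close together, at 34.4% of the N-Delta level (-1.54 ± 0.17, adjusted p = 0.000518, edgeR). Zbtb18, a zinc-finger transcriptional repressor, changed least of the 15, by -0.49 ± 0.08 (adjusted p = 0.0327), with 135.7 ± 14.4 CPM for N-ZFP and 190.1 ± 16.6 CPM for N-Delta (SD, n = 4 each).

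Metabolic enzymes, a calcium pump and a potassium channel were also lower. Impdh1, an IMP dehydrogenase of guanine nucleotide synthesis, had 30.6, 21.7, 30.3 and 22.3 CPM with N-ZFP and 53.3, 62.5, 53.6 and 54.9 CPM with N-Delta (log2 fold change -1.09 ± 0.14, adjusted p = 0.00242, edgeR). Acsl1, which activates long-chain fatty acids by joining them to coenzyme A, had 56.1, 51.6, 59.9 and 48.9 CPM with N-ZFP and 90.9, 82.9, 85.8 and 86.2 CPM with N-Delta (-0.68 ± 0.08, adjusted p = 0.00107, edgeR). For Impdh1 N-ZFP libraries 2 and 4 were again the lower pair, whereas the Acsl1 libraries were more even. Atp2b3, a plasma membrane pump that exports calcium, had 82.9, 62.8, 99.2 and 58.0 CPM with N-ZFP and 135.1, 162.3, 171.0 and 162.7 CPM with N-Delta (-1.06 ± 0.16, adjusted p = 0.00996, edgeR). It was the 1 called gene among 26 calcium-handling genes, whose median log2 fold change was -0.14. Kcna6, a voltage-gated potassium channel of the Kv1 family, had 43.4, 58.7, 50.6 and 45.5 CPM with N-ZFP and 64.0, 81.7, 76.2 and 80.4 CPM with N-Delta (-0.61 ± 0.10, adjusted p = 0.0197, edgeR). The highest N-ZFP library of Kcna6 was close to the lowest N-Delta library. An antisense gene, Gm26673, overlaps Kcna6, and since the use of strand in counting is not stated, reads of these genes cannot be told apart. Of the 50-base words of Kcna6, 38.8% also occur in Gm26673 or Kcna5. Genes on the opposite strand also overlap Acsl1 (Gm45244), Ace (Gm11651), Zbtb18 (Gm26801), Opcml (Gm48091), Dach1 (Gm16331), Egfr (Egfros) and Dchs2 (Gm10710). On the same strand Myo3b is overlapped by Gm13631, Dach1 by Gm25831, and Opcml by Gm15606 and Gm44316. Of the 50-base words of Acsl1 9.23% occur in 19 other genes, Gm45244 among them, and of those of Dchs2 11.6% occur in Gm10710. Gm10710 was at a log2 fold change of 0.64 ± 0.21, beside 0.64 ± 0.10 for Dchs2. Gm26673 was at 0.51 ± 0.26, opposite in sign to Kcna6. Neither antisense gene was called.

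The remaining lowered genes have varied roles. Opcml, a cell adhesion protein of the IgLON family, had 128.7, 141.1, 140.1 and 112.3 CPM with N-ZFP and 211.6, 201.5, 226.7 and 194.6 CPM with N-Delta (log2 fold change -0.68 ± 0.08, adjusted p = 0.000593, edgeR). Lysmd2, which has a LysM domain, averaged 16.36 ± 1.70 CPM with N-ZFP and 30.02 ± 2.01 CPM with N-Delta (SD, n = 4 each), a change of -0.87 ± 0.11 (adjusted p = 0.00179, edgeR). Dnajc12, a co-chaperone of the DnaJ family, averaged 5.77 ± 1.52 CPM with N-ZFP and 11.1 ± 0.503 CPM with N-Delta, a change of -0.94 ± 0.17 (adjusted p = 0.0443, edgeR). In none of these 3 genes did the groups overlap, but the N-ZFP libraries of Dnajc12 were spread from 3.70 to 7.25 CPM, and its call was lost in 11 of 17 alternatives. Gpx6, of the glutathione peroxidase family, had the largest fitted change but also a wide error, -1.70 ± 0.31 (adjusted p = 0.0443). It had 5.55, 1.84, 3.15 and 3.22 CPM with N-ZFP and 15.6, 10.9, 9.92 and 8.57 CPM with N-Delta. Myo3b, a class III myosin, had 10.4, 11.2, 7.93 and 9.48 CPM with N-ZFP and 32.9, 16.2, 18.8 and 24.0 CPM with N-Delta (-1.23 ± 0.20, adjusted p = 0.0197). Ace, angiotensin-converting enzyme, had 34.1, 43.4, 31.7 and 42.8 CPM with N-ZFP and 71.8, 55.9, 57.8 and 55.8 CPM with N-Delta (-0.67 ± 0.12, adjusted p = 0.0443). For Gpx6, Myo3b and Ace, N-Delta library 1 was the highest of its group, and no N-ZFP library reached the lowest N-Delta one.

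The 5 higher genes code for surface proteins, 3 of them G protein-coupled receptors. Htr2a, the serotonin 2A receptor, had 54.5, 44.6, 57.9 and 46.0 CPM with N-ZFP and 26.0, 28.8, 25.0 and 31.6 CPM with N-Delta. N-ZFP libraries 1 and 3, those with the high mitochondrial share, were the higher pair. The level was 182.3% of that with N-Delta, a log2 fold change of 0.87 ± 0.13 with an adjusted p of 0.00592. Gpr149, an orphan receptor, had 30.4, 29.0, 31.8 and 29.9 CPM with N-ZFP and 12.7, 20.1, 16.7 and 20.2 CPM with N-Delta (0.80 ± 0.14, adjusted p = 0.0443, edgeR). Gpr83 averaged 165.8 ± 19.2 CPM with N-ZFP and 120.4 ± 4.30 CPM with N-Delta (0.46 ± 0.08, adjusted p = 0.0379, edgeR). Dchs2, of the cadherin family, averaged 103.2 ± 6.70 CPM with N-ZFP and 66.1 ± 10.3 CPM with N-Delta (0.64 ± 0.10, adjusted p = 0.0154, edgeR). Egfr, the epidermal growth factor receptor, averaged 33.9 ± 1.52 CPM with N-ZFP and 25.3 ± 1.42 CPM with N-Delta (0.42 ± 0.08, adjusted p = 0.0443, edgeR; SD over n = 4 each). Gains were thus smaller than most losses. Without N-ZFP libraries 1 and 3 none of the 5 was called, all 5 kept a positive sign and their median log2 fold change was 0.56. For the lowered genes 10 of 15 were still called, all 15 kept a negative sign and the median was -1.24, beside -1.06 with all libraries. In that setting 12 of 16972 genes were called (0.0707%), all lower. The higher and lowered genes were chosen from these same libraries, and their groups did not overlap. Leaving libraries out could therefore hardly change a sign.

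Runs of CAG or CTG near the start of transcription were searched for as (CAG)n and (CTG)n on the transcript strand, in the 300-base RefSeq promoter window (GRCm38.p6) and in the first 1000 bases of GENCODE transcripts. At least 5 uninterrupted units were found in 5 of the 15 lowered genes (33.3%), Tceal6, Nap1l3, Dach1, Kcna6 and Acsl1, and in none of the 5 higher genes. Over all genes tested with sequence the share was 265 of 15722 (1.69%). With at least 4 units it was 6 of 15 lowered genes (40.0%, with Impdh1 added) beside 3.91% of all genes, and with at least 7 units 2 of 15 (13.3%) beside 0.515%. Without N-ZFP libraries 1 and 3 Kcna6 was no longer called (-0.54 ± 0.13, adjusted p = 0.506, edgeR), and 4 of the 12 genes then called lower held a run of at least 5 units (33.3%). The promoter window held no run of 5 units for any of the 11 lowered genes with an entry in that table, in which Mzt2, Lysmd2, Atp2b3, Dnajc12 and Gpr149 are missing, and the runs counted lie downstream of the start. A match is a description of the letters and does not show binding.

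**Figure D2:**
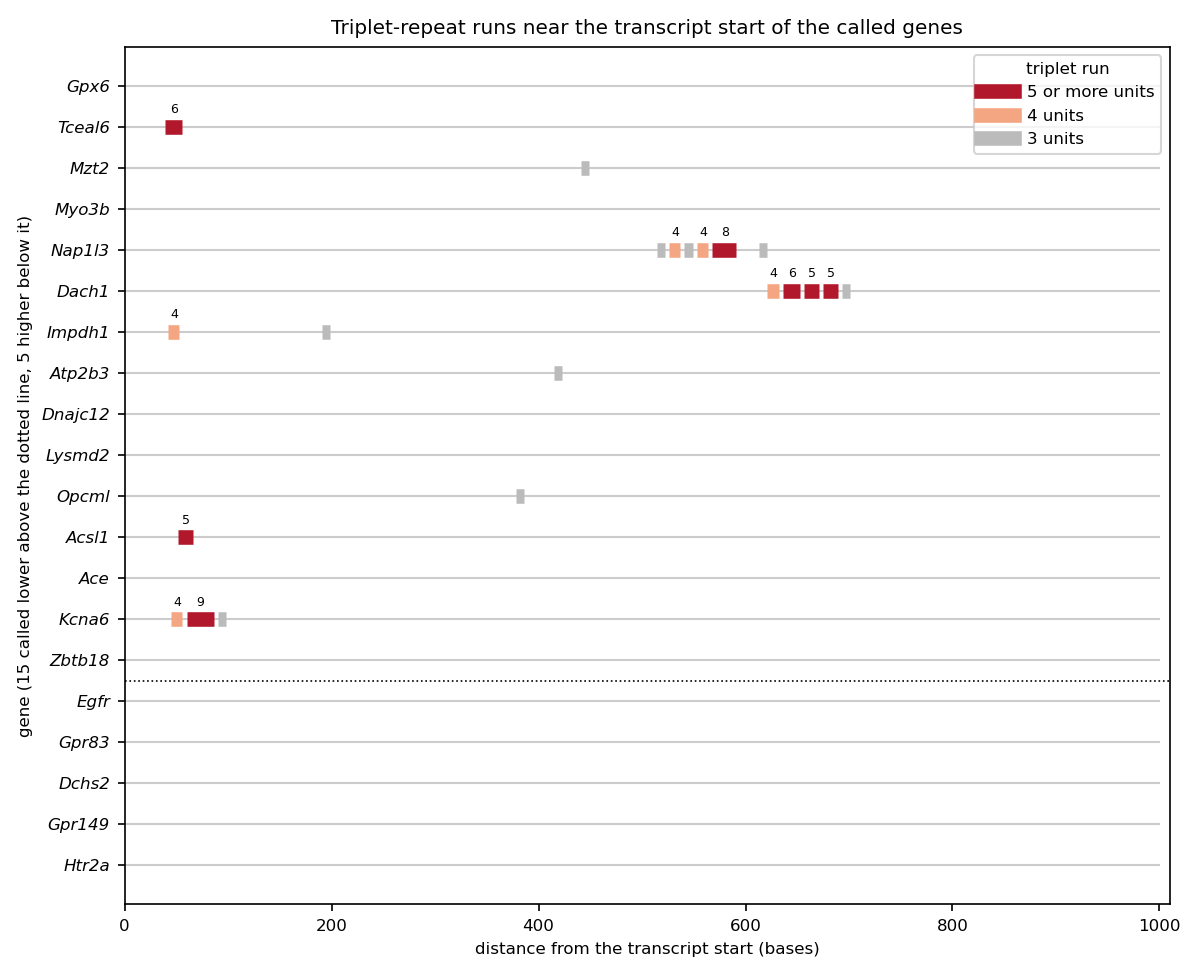
Runs of CAG or CTG in the first 1000 transcript bases of the 20 called genes, by distance from the transcript start in bases. Numbers above the marks give units. The 5 lowered genes with 5 or more units have them close to the start (Tceal6 at base 39, Acsl1 at base 52, Kcna6 at base 60) or farther in (Nap1l3 at base 568, Dach1 from base 636), and the 5 higher genes have no run of 3 units.

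Most genes with such a run were not called. The 265 genes had a median log2 fold change of -0.01, with 5 called lower and none called higher, beside 0.0948% and 0.0316% of all genes. By unadjusted p under 0.05, 21 were lower and 10 higher, beside 3.83% and 2.23% of all genes. DESeq2 called 11 of the 265, beside 83 of 15814 genes in all. Among the 25 genes whose run had 10 or more units none was called by edgeR and the median was -0.00. At unadjusted p under 0.05, 4 of the 25 were lower and none higher, beside the same 3.83% and 2.23% of all genes. Examples just short of the threshold were Cnih3, an AMPA receptor auxiliary protein with 5 units, at -1.31 ± 0.27, and St6galnac5, a sialyltransferase with 11 units, at -0.53 ± 0.11, each with an adjusted p of 0.0836. Rsl24d1, a ribosome biogenesis factor with 17 units in its promoter window, followed at -0.67 ± 0.15 (adjusted p = 0.111), and Mt3, a metallothionein with 11 units in that window, at -0.44 ± 0.10 (adjusted p = 0.159). Each of these 4 genes had no overlap between the groups, N-ZFP being lower. In zQ175 neuronal RNA St6galnac5 (-0.79), Rsl24d1 (-0.83) and Mt3 (-0.60) were called lower, and Cnih3 was not called. Of the 25 genes with 10 or more units 3 were called lower there and none higher, beside 0.196% and 0.133% of all genes.

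No gene next to a lowered one was called, but only 9 of the 15 lowered genes had a tested neighbour. Tceal6, Nap1l3, Dach1, Opcml, Myo3b and Zbtb18 had none. Of 22 tested genes that start within 100000 bases of a lowered gene, none was called by edgeR, 2 had an unadjusted p under 0.05 (1 of them lower) and the median log2 fold change was 0.03. Without N-ZFP libraries 1 and 3 none was called, none had an unadjusted p under 0.05 and the median was 0.01. Sirt1, a deacetylase gene that starts 739 bases from Dnajc12, was at 0.17 ± 0.12.

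Genes that mark striatal projection neurons were mostly not called. Of 45 tested genes of striatal projection neurons, Gpr149 was called higher and none lower, and the median log2 fold change was -0.13, with 36 of 45 below 0. At unadjusted p under 0.05, 6 were lower and 3 higher, beside 3.83% and 2.23% of all genes, and DESeq2 called 2. Without N-ZFP libraries 1 and 3 none was called, 1 was lower and 1 higher at unadjusted p under 0.05, and the median was -0.16. Ppp1r1b, which codes for DARPP-32, had 1590, 1452, 1515 and 1507 CPM with N-ZFP and 1932, 1753, 1637 and 1737 CPM with N-Delta. The groups did not overlap, but the difference of -0.22 ± 0.14 did not pass the test (adjusted p = 0.895, edgeR). Penk, the enkephalin precursor, likewise did not overlap, at 1461 to 1518 CPM with N-ZFP and 1700 to 1822 CPM with N-Delta (-0.24 ± 0.18, adjusted p = 0.907). Arpp21, a phosphoprotein enriched in these neurons, differed most among those not called, with 973.0, 592.6, 833.9 and 649.1 CPM with N-ZFP and 1621, 1241, 1277 and 1250 CPM with N-Delta (-0.82 ± 0.19, adjusted p = 0.186). Direct-pathway genes (14 tested), indirect-pathway genes (13), cholinergic (10) and GABAergic (17) interneuron genes had no called member, and their medians were 0.01, -0.15, 0.09 and 0.09. Of the 13 indirect-pathway genes 10 were below 0. Their summed level did not overlap, at 2930 to 3019 CPM with N-ZFP and 3179 to 3317 CPM with N-Delta. The direct-pathway sums overlapped. Without N-ZFP libraries 1 and 3 the indirect-pathway median was -0.01, with 7 of 13 genes below 0. At unadjusted p under 0.05, 2 direct-pathway genes, 1 cholinergic and 3 GABAergic interneuron genes were higher and 1 GABAergic interneuron gene was lower, and DESeq2 called none of these. Glutamate receptor and scaffold genes (40 tested), GABA receptor genes (21), voltage-gated channel genes (52), heat-shock genes (17) and endoplasmic reticulum stress genes (28) had none either, with medians from -0.09 to -0.00. The list of voltage-gated channel genes leaves out Kcna6, which was called lower. Of the glutamate receptor and scaffold genes 6 were lower and 2 higher at unadjusted p under 0.05, and DESeq2 called 1. No call was made either among interferon and MHC class I genes (30 tested, median -0.18), p53 and DNA damage genes (22, -0.08) and axon injury genes (14, -0.02). At unadjusted p under 0.05 these 3 lists held 2 higher and 5 lower genes, and DESeq2 called 1 gene, of the p53 list.

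No marker of another cell type was called by edgeR. Oligodendrocyte precursor (17 tested), ependymal and choroid (16), reactive astrocyte (23), oligodendrocyte (30) and vascular (22) lists had medians of 0.04, 0.03, -0.08, -0.11 and -0.14. The lists of cortical excitatory neurons, homeostatic astrocytes and microglia had medians farther from 0. DESeq2 called 2 cortical excitatory neuron genes, 1 homeostatic astrocyte gene and none of the microglial or mitochondrially encoded genes. Of 40 homeostatic astrocyte genes 38 were below 0 (median log2 fold change -0.35, 12 lower at unadjusted p under 0.05), and their summed level was 3245 to 4414 CPM with N-ZFP and 3697 to 5435 CPM with N-Delta. Of 19 cortical excitatory neuron genes 16 were below 0 (median -0.61, 6 lower and 1 higher at unadjusted p under 0.05), and their sum was 901.6 to 1215 CPM with N-ZFP and 1192 to 1518 CPM with N-Delta. Of 17 microglial genes tested 15 were above 0 (median 0.49). All 30 listed microglial genes summed to only 43.0 to 78.5 CPM with N-ZFP and 39.7 to 50.2 CPM with N-Delta. The 10 mitochondrially encoded genes tested were all above 0, 6 of them at unadjusted p under 0.05, with a median of 1.69, and mt-Nd1 had 624.7, 157.3, 1017 and 190.2 CPM with N-ZFP and 186.8, 146.7, 131.4 and 118.4 CPM with N-Delta. None of the defining markers of the cortical and astrocyte lists was at 0 in all libraries of a group. Without N-ZFP libraries 1 and 3 the medians were -0.46 for cortical excitatory neuron genes (14 of 19 below 0), -0.11 for homeostatic astrocyte genes (32 of 40 below 0) and 0.16 for mitochondrially encoded genes (11 tested), and the microglial median turned to -0.26 (26 tested). In that setting the lowered genes had a median of -1.24, but they were chosen for low values in these same libraries. Their median therefore cannot be compared with those of the lists. In WT bulk RNA with all libraries the medians were -0.29 for cortical excitatory neuron genes (15 of 19 below 0), 0.04 for homeostatic astrocyte genes (15 of 40 below 0) and -0.06 for microglial genes. The summed homeostatic astrocyte level there was 12096 to 12665 CPM with N-ZFP and 12059 to 12644 CPM with N-Delta. The part of the marker differences in the result was not tested. Fewer cells of a type, less RNA per cell and a difference between libraries in the capture of neuronal RNA cannot be told apart in such samples.

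**Figure D3:**
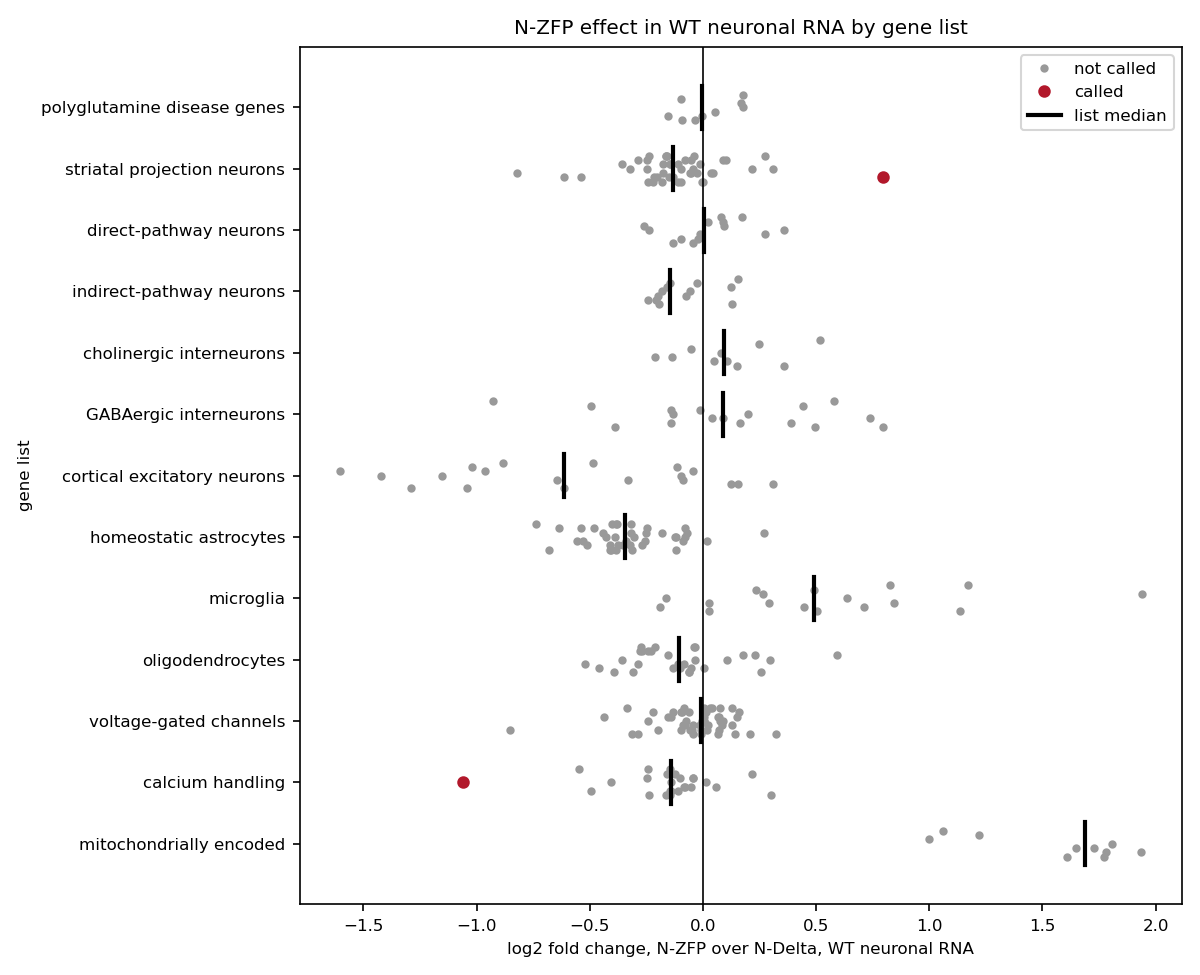
Log2 fold change of N-ZFP over N-Delta in WT neuronal RNA for each tested member of 13 gene lists. Grey points were not called, red points were called (Gpr149 and Atp2b3), and the black bar is the list median, which lies at -0.61 for cortical excitatory neuron genes and at 1.69 for mitochondrially encoded genes.

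In zQ175 neuronal RNA the lowered genes were largely lower too. There 52 of 15815 genes were called (0.329%), 31 lower (0.196%) and 21 higher (0.133%). That count ranged from 17 without N-Delta library 1 to 4348 without N-ZFP library 2. Of the 15 genes lowered in WT, 11 were also called lower in zQ175 (73.3% of the WT list and 35.5% of the zQ175 list), namely Impdh1, Acsl1, Mzt2, Atp2b3, Tceal6, Lysmd2, Dnajc12, Kcna6, Dach1, Nap1l3 and Opcml. Of the 5 higher genes Gpr83 was called higher in zQ175 as well, and the other 4 had positive log2 fold changes of 0.28 to 0.60. Values ran close for Tceal6, at -1.55 ± 0.13 in WT and -1.44 ± 0.13 in zQ175, for Atp2b3, at -1.06 ± 0.16 in WT and -1.06 ± 0.16 in zQ175, and for Nap1l3, at -1.17 ± 0.16 in WT and -1.25 ± 0.16 in zQ175. All 31 genes called lower in zQ175 were below 0 in WT, with a median of -0.56 there and -0.72 in zQ175. Of the 31, 10 had a run of at least 5 units (32.3%), and of the 21 higher genes none. The libraries of the genotypes are separate, but N-ZFP libraries with the same number in WT and zQ175 deviated from their group means together (correlations across genes of 0.228 to 0.687 over 4 pairs), so the results of the genotypes are not fully independent. Libraries 1 and 3 of zQ175 N-ZFP also had a high mitochondrial share, at 2.51% and 4.31%. Without them 11 of the 15 lowered genes and 1 of the 5 higher genes were called the same way, when 108 of 16191 genes were called (0.667%).

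Myo3b, Ace and Gpx6 did not follow this pattern. Myo3b had 4.37, 7.32, 5.45 and 5.58 CPM in zQ175 mice with N-ZFP and 5.60, 4.93, 6.55 and 4.78 CPM in zQ175 mice with N-Delta, which overlap and are below all 8 WT libraries. Its log2 fold change was -1.23 ± 0.20 in WT and 0.07 ± 0.23 in zQ175, a difference of -1.31 ± 0.31 (adjusted p = 0.748, edgeR). Ace stood at -0.67 ± 0.12 in WT and 0.05 ± 0.13 in zQ175, a difference of -0.72 ± 0.18 (adjusted p = 0.748, edgeR). Gpx6 was at or under 3 counts in every zQ175 neuronal library (0 to 0.202 CPM with N-ZFP and 0 to 0.193 CPM with N-Delta), so that no change could be measured there. The direct test of the difference between WT and zQ175 called none of 15815 genes with edgeR, 739 had an unadjusted p under 0.05 (4.67%), and DESeq2 called 1. A difference between the genotypes is therefore not shown for any of the 20 genes.

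**Figure D4:**
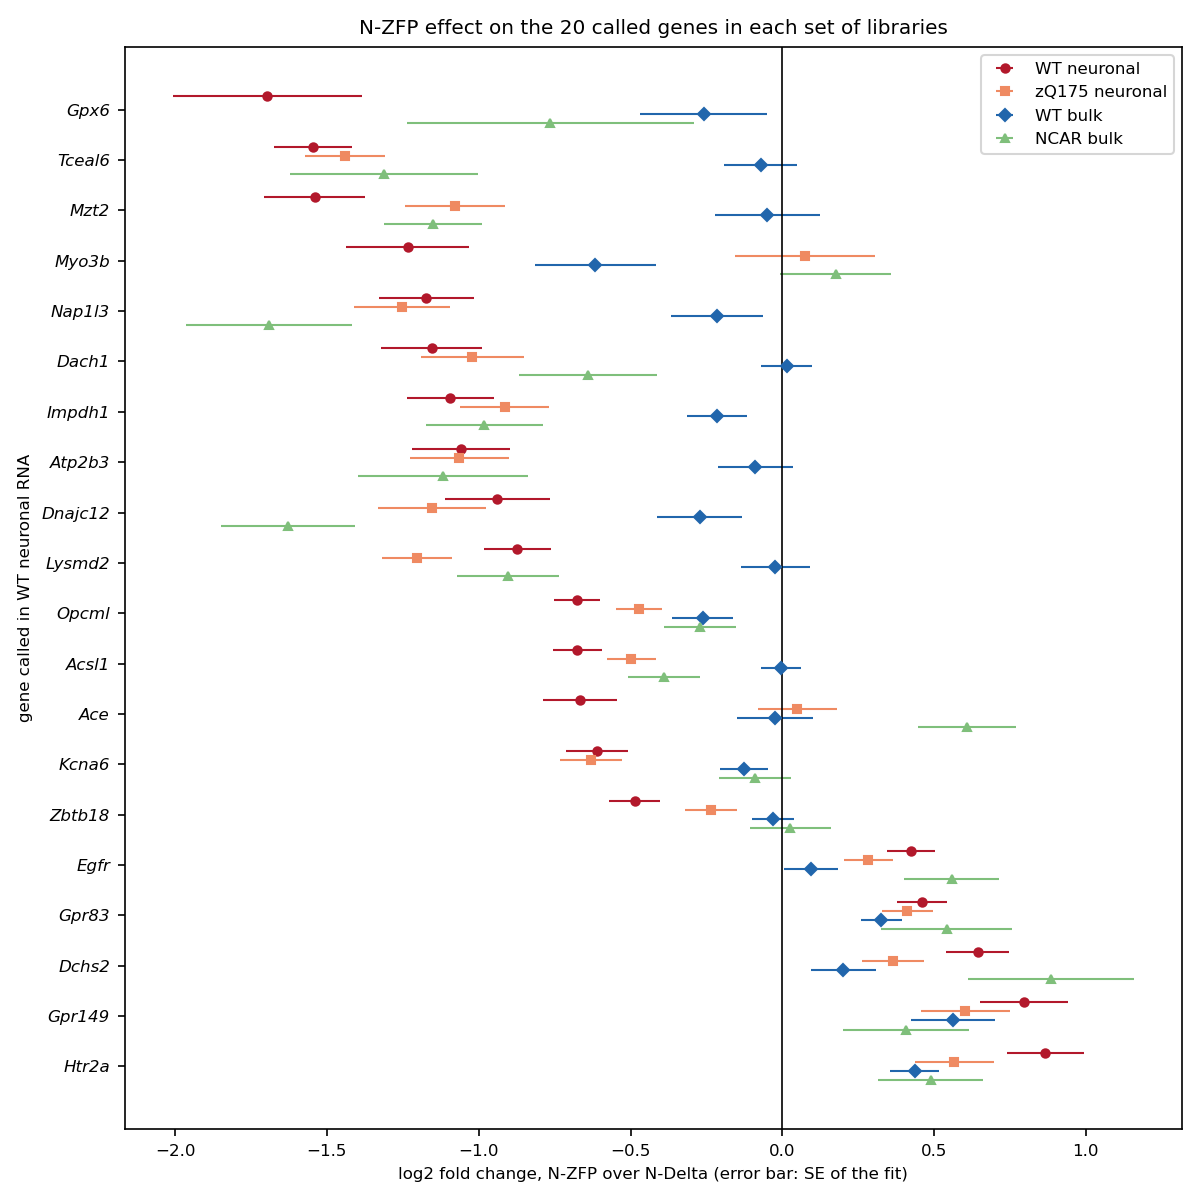
Log2 fold change of N-ZFP over N-Delta, with the SE of the fit, for the 20 genes called in WT neuronal RNA, in WT neuronal, zQ175 neuronal, WT bulk and NCAR bulk libraries. The zQ175 point of Gpx6 is left out because its libraries held at most 3 counts. WT bulk values lie near 0 for most lowered genes, with a median of -0.09.

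Bulk striatum of WT mice showed little of the loss. No gene of 17114 was called by edgeR there (0%), while 1384 had an unadjusted p under 0.05 (8.09%) and DESeq2 called 20. Of the 15 lowered genes 14 were below 0, with a median log2 fold change of -0.09, and the 5 higher genes were all above 0, with a median of 0.33. Tceal6 had 55.1, 49.0 and 37.7 CPM in bulk N-ZFP libraries 1, 3 and 4, against 49.9, 50.7, 45.6 and 52.5 CPM in bulk N-Delta libraries 1 to 4. Library 4 alone was below the N-Delta range. Over the 15 lowered genes, bulk N-ZFP library 4 was below all N-Delta libraries for 12, library 1 for 4 and library 3 for 2, with median log2 ratios to the N-Delta mean of -0.39, 0.00 and -0.02. In neuronal RNA each of the 4 N-ZFP libraries was below all N-Delta libraries for all 15 genes, which the call itself favours, and the median ratios were -0.80, -1.03, -0.87 and -1.29 in libraries 1 to 4.

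The change was larger in neuronal than in bulk RNA for 5 genes by the test of the difference, out of 17702 tested (0.0282%). The neuronal minus bulk difference was -1.48 ± 0.18 for Tceal6 (adjusted p = 8.98e-05), -0.68 ± 0.10 for Acsl1 (0.00085), -1.18 ± 0.19 for Dach1 (0.00377), -1.50 ± 0.24 for Mzt2 (0.00377) and -0.86 ± 0.16 for Lysmd2 (0.0462), all by edgeR's quasi-likelihood test. Without N-ZFP libraries 1 and 3 of both kinds, which leaves 1 bulk library assumed to vary like the other groups, Tceal6 (-1.46), Dach1 (-1.37) and Acsl1 (-0.78) were called and Mzt2 (-1.02) and Lysmd2 (-0.60) were not. Bulk and neuronal libraries may come from the same animals, since their column names share numbers.

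**Figure D5:**
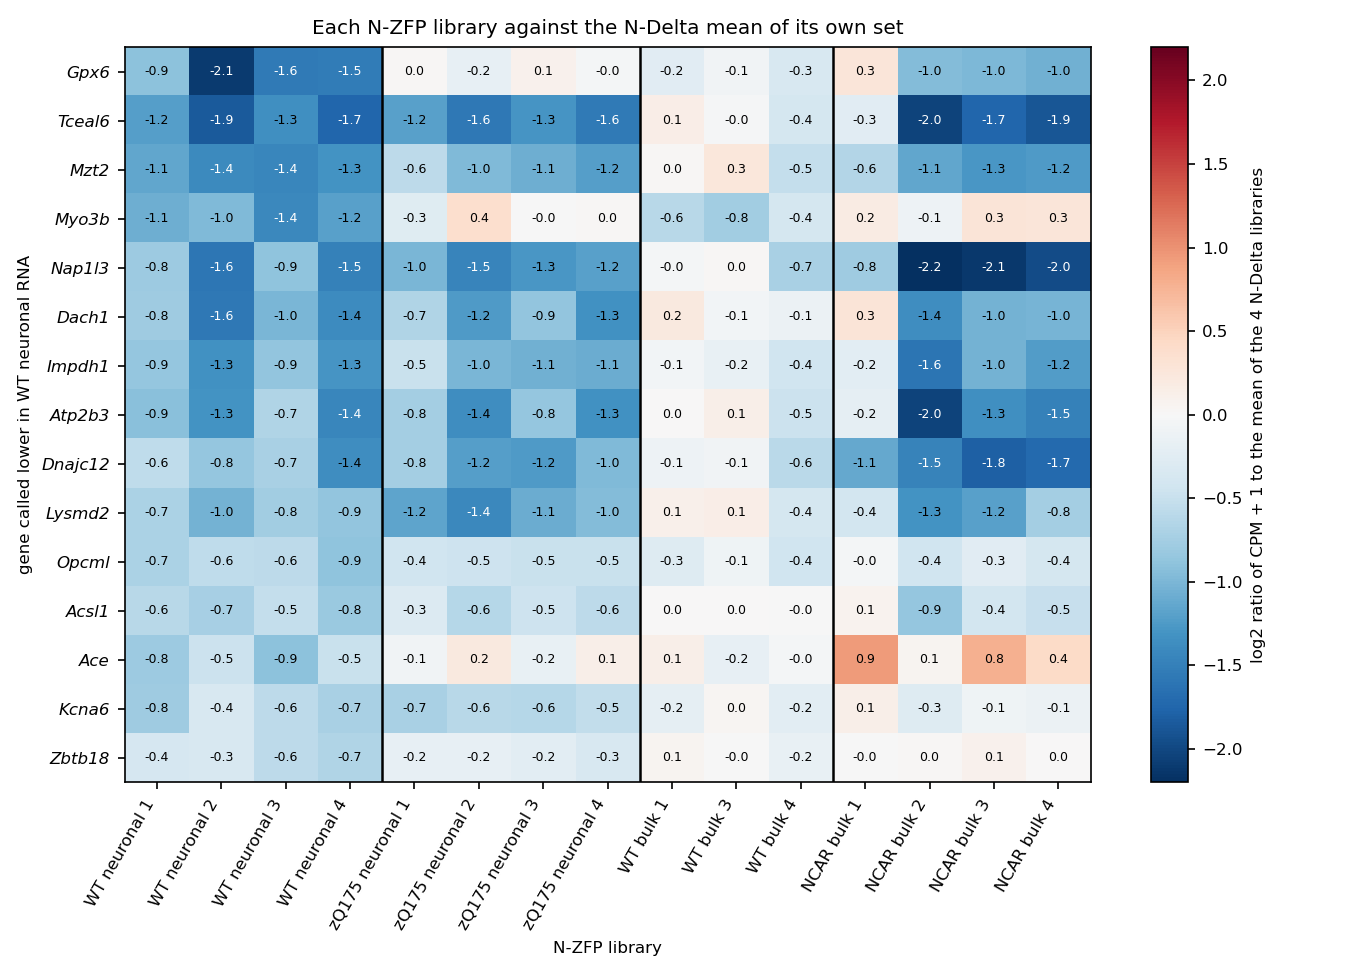
Log2 ratio of CPM + 1 in each N-ZFP library to the mean of the 4 N-Delta libraries of its own set, for the 15 genes called lower in WT neuronal RNA. Vertical lines part WT neuronal, zQ175 neuronal, WT bulk and NCAR bulk libraries. WT bulk libraries 1 and 3 and NCAR bulk library 1 are close to 0 for most genes, and WT bulk library 4 is below the N-Delta libraries for 12 of 15.

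In bulk striatum of NCAR mice, a separate experiment with another virus capsid, younger animals and deeper libraries, 9 of the 15 lowered genes were called lower. These were Impdh1, Acsl1, Mzt2, Atp2b3, Tceal6, Lysmd2, Dnajc12, Dach1 and Nap1l3 (60% of the WT list). Calls in that experiment were frequent, 4776 of 21752 genes (22%) with 10.2% lower, and they depended on single libraries. NCAR N-ZFP library 1 was near the N-Delta level, with a median log2 ratio of -0.04 over the 15 genes against -1.14, -1.04 and -1.03 in libraries 2 to 4. Tceal6 had 43.3, 11.8, 14.8 and 13.3 CPM with N-ZFP and 50.7, 53.4, 51.2 and 51.8 CPM with N-Delta in NCAR mice. Without library 1, 153 of 21648 genes were called (0.707%, 93 lower and 60 higher), and 9 of the 15 lowered genes were called lower. Tceal6 was then at -1.96 and Nap1l3 at -2.18. Of the 5 higher genes, Egfr, Htr2a and Dchs2 were called higher with all libraries and none without library 1, and all 5 were above 0 in both settings. Ace, lower in WT neuronal RNA, was called higher in NCAR bulk RNA at 0.61 ± 0.16 (adjusted p = 0.021), and was at 0.47 and not called without library 1 (adjusted p = 0.0858, edgeR). Kcna6 was at -0.09 ± 0.12 there and Zbtb18 at 0.03 ± 0.13, neither of them called.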

How the data were processed

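The authors deposited 1 table of raw counts, whole numbers without normalization, for 48795 Ensembl genes. The submitters' processing notes name STAR, HTSeq and the mm10 build, and the labels' protocols name a stranded kit for total RNA. Versions and the use of strand are not given in the sources used here. Symbols for 48349 genes came from GENCODE M21.

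All 16 neuronal libraries entered 1 fit in edgeR 4.0.16 (R 4.3.3), with TMM scaling, the filterByExpr filter, a quasi-likelihood F test and Benjamini-Hochberg adjustment over all genes tested. The threshold for a call was an adjusted p of 0.05. CPM of single genes are TMM-scaled within a fit, and the SE is the size of the log2 fold change divided by the square root of F. Summed levels of a list cover all its genes in the count table, tested or not, and use CPM without TMM scaling. Bulk libraries of each experiment had a fit of their own. The difference between neuronal and bulk RNA came from 1 fit of both kinds. DESeq2 1.42.0 was an alternative. The code was tested on simulated data.

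The libraries, 33 gene lists and tests were chosen with earlier results of these data known. Genes named are Htt and the polyglutamine genes, a striatal panel, up to 15 called genes each way (mean CPM 2 or more, groups not overlapping), up to 4 members of a list by p, genes called in several comparisons or in a difference between comparisons, and lowered genes with a repeat. The other genes with a repeat (Cnih3, St6galnac5, Rsl24d1, Mt3), those just short of the threshold, mt-Nd1, Sirt1 and the antisense and other overlapping genes were named after values were seen. No WT neuronal libraries were identical (correlations of log2 CPM 0.972 to 0.991). Floors cover counting error only.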

Additional observations from a re-analysis of the deposited data

Results flagged for a closer look

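In 3 of 42 groups of 4 WT neuronal libraries examined (the 20 called genes and the mitochondrial share, in each virus group), 1 library was far from the other 3, and chance gives about 1 in 20 groups. All 3 are N-Delta libraries. Dach1 was at 197.4 CPM in N-Delta library 1, with 148.9 to 156.2 CPM in the others. Impdh1 was at 62.5 CPM in N-Delta library 2, with 53.3 to 54.9 CPM in the others. Ace was at 71.8 CPM in N-Delta library 1, with 55.8 to 57.8 CPM in the others.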

How the results depend on the processing

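The WT neuronal count of 20 was 83 with DESeq2, 12 without N-ZFP libraries 1 and 3, 10 when a fold above 1.2 was tested, and 9 to 40 with 1 library left out. The labels do not say whether libraries of the same number belong together. WT N-ZFP and N-Delta libraries of the same number correlated at -0.01 to 0.29 over 4 pairs (mean 0.16, against -0.06 for other pairs). Of these pairs 3 were over 0.1, and 2 of 4 were best with their own number. N-ZFP libraries of WT and zQ175 deviated together (0.228 to 0.687). The main fit leaves the number out. With the replicate number as a block the count was 33 in WT, 1253 in zQ175 and 0 for their difference. The zQ175 count of 52 was 1911 with DESeq2, 143 without the low-count filter, 7 with only its 2 groups in the fit, 108 without N-ZFP libraries 1 and 3, and 17 to 4348 with 1 library left out. The WT minus zQ175 difference, 0, was 1 with DESeq2. The WT bulk count of 0 was 20 with DESeq2, 73 without the filter, 1 with 2 groups, and 0 to 1 with 1 library left out. The NCAR count of 4776 was 32 with 2 groups and 39 to 7159 with 1 library left out. The neuronal minus bulk count of 5 was 3 without N-ZFP libraries 1 and 3 of both kinds, and 3 to 8 with 1 library left out. Lowered genes with a run numbered 5, against 0 in the promoter window alone and 2 at 7 units. Htt stayed between -0.06 and -0.01 (adjusted p 0.833 to 1). The search of 1 kb flanks was not run. The settings without N-ZFP libraries 1 and 3 in zQ175 and bulk RNA and for gene lists, and the windows searched for runs, were chosen after seeing the data. Depth limits low genes such as Gpx6. The cause of these moves was not tested.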

Other observations

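Cytosolic ribosomal protein genes leaned upward in WT neuronal RNA with N-ZFP: 75 of 86 had a positive log2 fold change, with a median of 0.16, none was called by edgeR or DESeq2 and 2 had an unadjusted p under 0.05. Their summed level was 3210 to 3763 CPM with N-ZFP and 3572 to 4195 CPM with N-Delta, so the sum and the median differ in direction. Nuclear genes of oxidative phosphorylation leaned the other way, with 62 of 74 below 0 and a median of -0.08, while the mitochondrially encoded genes were above 0. Of 4 genes that missed the threshold narrowly, Noa1, Spon1 and Zcwpw1, at log2 fold changes of -0.76, -0.76 and 0.86, were called in zQ175 neuronal RNA in the same direction, and Galnt17, at -0.61, was not.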
